A study of Homo sapiens with 2 samples.

Results

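The 10 integrin subunit genes described here were measured in SW48 cells, a long-established line from a human colorectal cancer, after knockdown of the transcription factor YY1. They were picked by gene symbol from the deposited table and make up 10 of the 17687 named genes, with 1 probe set each: the beta subunits ITGB1, ITGB4, ITGB5, ITGB6 and ITGB8 and the alpha subunits ITGA2, ITGA3, ITGA5, ITGA6 and ITGAV. Their choice was made with earlier results of the same arrays in view, so their values are a description. The siYY1 cells received a single double-stranded small interfering RNA (siRNA) against YY1, and the siControl cells a commercial negative control siRNA. Both siRNAs were given at 5 nmol/L with the same lipid reagent, in the same medium with serum, and total RNA was taken after 3 days. A single whole-transcript array was deposited for each group, so no test was possible and no difference below has a replicate check. The level of YY1 was not analysed here, so the depth of the knockdown is unknown. The single siRNA and single cell line also limit the groups as a model of YY1 loss.

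Integrins are surface receptors built from 1 alpha and 1 beta subunit, and the pairing sets which matrix protein is bound. In the gut epithelium, beta1 integrins and alpha6-beta4 hold cells to the laminin of the basement membrane, while alphaV integrins recognise the Arg-Gly-Asp (RGD) sequence of fibronectin, vitronectin and latent transforming growth factor beta (TGF-beta). Talin and kindlin bind the tails of most beta subunits and connect them to actin. Alpha6-beta4 instead connects to keratin filaments through plectin, in hemidesmosomes.

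The integrin genes did not differ in 1 direction. ITGB8 was 2.76-fold lower in siYY1 and ITGB4 was 1.58-fold lower, whereas ITGB1 was 1.72-fold higher and ITGAV 1.68-fold higher. The other 6 genes lay within 1.5-fold, with ITGA2 at nearly the same value on both arrays. An expression filter kept the 8844 genes with a mean of both arrays, on the log2 scale, of 7.54 or more, the median of all named genes. It passed 8 of the 10 integrin genes, the exceptions being ITGA5 and ITGB6. Of the 10 genes, 2 were at least 1.5-fold lower, where the share among genes kept was 3.78% and among all named genes 3.90%. Another 2 were at least 1.5-fold higher, where the shares were 3.04% and 3.98%. At 2-fold, ITGB8 alone was lower (0.577% of genes kept) and 0 were higher (0.373% of genes kept). The 10 genes were chosen with these differences known, so nothing is read from their counts against these shares. The median difference over all 10, siYY1 minus siControl on the log2 scale, was -0.22, while that over all named genes was 0.01. Over the 8 integrin genes that passed the filter it was -0.075, beside 0.00 over all genes kept. The median says little of a set whose members lie on both sides of 0.

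**Figure D1:**
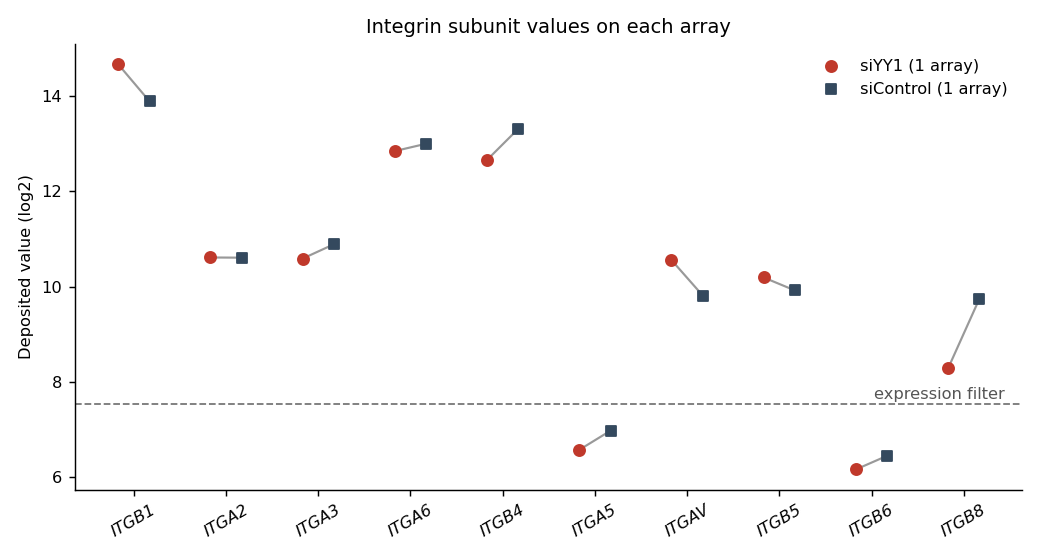
Deposited log2 value (vertical axis) of each integrin gene on the siYY1 array (circle, left) and the siControl array (square, right), 1 array per group, with a line joining the arrays and a dashed line at the expression filter of 7.54. ITGB1 and ITGAV were higher in siYY1, ITGB8 and ITGB4 lower, and ITGA5 and ITGB6 lay under the filter on both arrays. Heights of different genes come from different probes and are not comparable.

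Epithelial markers passed the filter on these arrays and the listed markers of other cell types did not. Of 11 colon epithelium markers with a probe set, 7 passed the filter (EPCAM, CDH1, KRT8, KRT18, KRT19, CDX2 and CLDN7), and the median difference of the 11 was 0.01. The differentiated enterocyte genes CDX1, VIL1 and LGALS4, and ELF3, did not pass. None of 7 fibroblast, 8 leukocyte or 8 endothelial and platelet markers passed: 0 in each list. Their log2 values ran from 3.01 to 6.34 in siYY1 and from 3.12 to 6.28 in siControl. The median over all probe sets was 7.10 in siYY1 and 7.11 in siControl, and the reference gene ACTB differed by 0.11. GAPDH differed by -0.03, with both values beyond 16, more than a 16-bit scan can record in log2 units. In such bulk RNA, fewer cells with a transcript and less of it per cell cannot be told apart.

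ITGB8 stood out among the beta subunits. It pairs with alphaV alone and holds latent TGF-beta at the cell surface for activation, and its tail is unlike those of the talin-binding beta subunits. Its probe set, TC0700006844.hg.1, read 8.28 in siYY1 and 9.74 in siControl, a difference of -1.46. This was rank 7 from the lowest among the 8844 genes kept. Both values lay above the filter. The genes kept were split into 5 equal classes by brightness, and ITGB8 belonged to the dimmest (mean log2 from 7.54 to 9.10), where differences spread most, with a 5th percentile of -0.62 and 5.37% of genes at least 1.5-fold lower.

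ITGB4, the beta subunit of hemidesmosomes, read 12.66 in siYY1 and 13.32 in siControl, a difference of -0.66 that placed it at rank 241 from the lowest. Its size was close to the 1.5-fold threshold of 0.585. ITGB4 lay in the brightest class, where the spread was narrower. There the 5th percentile was -0.37, and 1.92% of genes were at least 1.5-fold lower.

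ITGB1, the beta subunit shared by the collagen, laminin and fibronectin receptors, read 14.67 in siYY1 and 13.89 in siControl. The difference of 0.78 was rank 93 from the highest among genes kept. In the same brightest class the 95th percentile was 0.38, and 1.07% of genes were at least 1.5-fold higher. ITGAV, the partner of beta1, beta5, beta6 and beta8, read 10.56 in siYY1 and 9.81 in siControl. Its difference of 0.75 was rank 114 from the highest, in a class (mean log2 from 9.10 to 10.32) where the 95th percentile was 0.53 and 3.34% of genes were at least 1.5-fold higher. ITGB1 and ITGAV thus had nearly the same difference, on probe sets of different brightness.

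**Figure D2:**
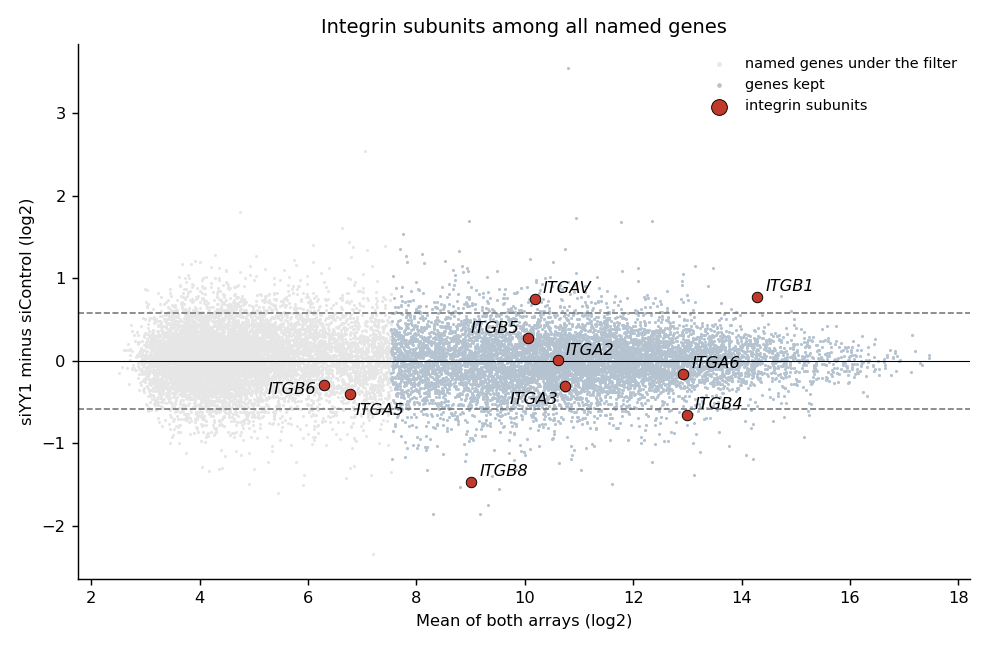
Difference siYY1 minus siControl (log2, vertical axis) against the mean of both arrays (log2, horizontal axis) for every named gene, with genes kept in blue-grey, genes under the filter in light grey and integrin genes in red. Dashed lines mark 1.5-fold. ITGB8 (-1.46) lies near the lower edge of the cloud, ITGB1 (0.78) and ITGAV (0.75) near its upper edge, and ITGB4 (-0.66) just past the lower line.

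The letters before the transcription start were read for the integrin genes past 1.5-fold, because YY1 binds DNA and its core recognition sequence contains GCCAT. The windows are RefSeq promoters of GRCh38.p14, and 8 of the 10 genes had at least 1 (ITGB4 and ITGA3 had none in the table used). Printed are the 250 bases before each start of ITGB8, ITGB1 and ITGAV, and of the ITGB5 start with the longer motif, 5′ to 3′ on the gene's strand, with GCCAT or its reverse complement ATGGC in capitals. ITGB8 lies on the plus strand (chr7:20330650-20330899). ITGB1 lies on the minus strand, with an upstream start (chr10:32958231-32958480) and a downstream start (chr10:32935559-32935808). ITGAV lies on the plus strand, with an upstream start (chr2:186589806-186590055) and a downstream start (chr2:186599955-186600204). The ITGB5 window is on the minus strand (chr3:124901419-124901668).
ITGB8: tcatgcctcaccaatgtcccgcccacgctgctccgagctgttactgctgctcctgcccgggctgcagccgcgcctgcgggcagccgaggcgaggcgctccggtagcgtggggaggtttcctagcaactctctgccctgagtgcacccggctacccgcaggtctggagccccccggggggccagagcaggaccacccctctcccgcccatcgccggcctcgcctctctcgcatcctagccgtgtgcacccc
ITGB1 upstream start: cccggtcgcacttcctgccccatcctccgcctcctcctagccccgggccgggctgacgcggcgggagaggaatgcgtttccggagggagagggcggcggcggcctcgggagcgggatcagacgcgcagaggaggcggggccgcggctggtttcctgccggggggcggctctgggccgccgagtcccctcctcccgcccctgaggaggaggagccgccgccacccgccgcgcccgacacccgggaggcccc
ITGB1 downstream start: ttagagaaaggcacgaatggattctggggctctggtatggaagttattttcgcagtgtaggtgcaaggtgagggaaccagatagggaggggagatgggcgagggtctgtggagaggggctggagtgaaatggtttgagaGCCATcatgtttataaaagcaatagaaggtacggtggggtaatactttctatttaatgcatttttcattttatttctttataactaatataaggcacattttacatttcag
ITGAV upstream start: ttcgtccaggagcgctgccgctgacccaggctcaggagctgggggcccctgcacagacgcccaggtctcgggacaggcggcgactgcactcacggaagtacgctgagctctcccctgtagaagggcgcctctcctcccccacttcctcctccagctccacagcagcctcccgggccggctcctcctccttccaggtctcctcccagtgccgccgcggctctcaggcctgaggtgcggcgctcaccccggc
ITGAV downstream start: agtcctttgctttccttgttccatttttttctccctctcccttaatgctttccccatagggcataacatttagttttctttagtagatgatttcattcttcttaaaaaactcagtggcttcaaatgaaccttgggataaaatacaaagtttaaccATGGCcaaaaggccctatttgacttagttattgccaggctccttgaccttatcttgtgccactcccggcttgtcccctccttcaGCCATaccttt
ITGB5: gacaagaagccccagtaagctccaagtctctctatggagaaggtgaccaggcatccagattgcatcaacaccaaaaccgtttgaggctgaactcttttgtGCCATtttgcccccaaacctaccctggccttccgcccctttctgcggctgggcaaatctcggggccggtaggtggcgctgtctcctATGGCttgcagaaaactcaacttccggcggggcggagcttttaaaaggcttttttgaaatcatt

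The window of ITGB8, which had the largest difference of the 10 genes, held no GCCAT on either strand, nor did the upstream windows of ITGB1 and ITGAV. The downstream window of ITGB1 held 1, 111 bases before the start, and that of ITGAV held 2, at 95 and 11 bases before it. In all, 5 of 13 windows of the integrin genes held GCCAT (38.5%), against 37.8% of 35116 windows in the table. Those windows belonged to ITGA2, ITGA6, ITGAV, ITGB1 and ITGB5. Counted by gene, 5 of the 8 integrin genes with a window held GCCAT in at least 1 window, against 43.1% of 27305 genes. Genes with more windows had more letters searched, so nothing is read from this count. The longer motif AANATGGC, which contains the shorter one, was found on either strand in 1 window, the ITGB5 one printed above, against 6.58% of all windows. The windows counted here run from 250 bases before the start to 50 after it. A match is a match of letters only, and a window without one says nothing of binding by YY1 there or elsewhere.

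The ITGB8 and ITGB1 upstream windows were rich in G and C, at 71.7% and 78.3% over 300 bases, as was the ITGAV upstream window at 70.7%. The downstream windows of ITGB1 and ITGAV, which held GCCAT, were lower, at 40.7% and 41.3%, and the ITGB6 window, which held none, was at 31.7%. The other windows with GCCAT, of ITGA2, ITGA6 and ITGB5, were at 72.7%, 53.0% and 49.7%. Windows with GCCAT were thus found at both high and low G and C content.

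Among the laminin receptor subunits, the alpha chains differed less than the beta chains. ITGA6, which pairs with beta1 or beta4, read 12.85 in siYY1 and 13.00 in siControl, a difference of -0.15. ITGA3, a partner of beta1 in laminin receptors, read 10.59 in siYY1 and 10.89 in siControl, a difference of -0.30. Both were thus slightly lower in siYY1 and within 1.5-fold. ITGA6 can join ITGB1, which was higher, or ITGB4, which was lower, so its possible partners lay 1.44 apart on the log2 scale of differences.

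The collagen receptor subunit ITGA2 read 10.61 on both arrays, a difference of 0.00. Its partner is ITGB1 alone, and the beta difference exceeded that of ITGA2 by 0.77. ITGA5, the alpha chain of the classical fibronectin receptor, read 6.57 in siYY1 and 6.97 in siControl, a difference of -0.40. Both values lay under the filter, where a signal above background was not established, so the size of this difference is uncertain.

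The remaining RGD-binding beta subunits differed less than ITGB8. ITGB5, which binds vitronectin with alphaV, read 10.19 in siYY1 and 9.92 in siControl, a difference of 0.27. ITGB6, an epithelial subunit that activates latent TGF-beta with alphaV, read 6.16 in siYY1 and 6.45 in siControl, a difference of -0.29. ITGB6 lay under the filter on both arrays, so the size of its difference is uncertain as well. Among the partners of alphaV that passed the filter, the differences ran from ITGB8 (-1.46) through ITGB5 (0.27) to ITGB1 (0.78), and the place of ITGB6 among them was not established.

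Set out by known heterodimer, the gap between beta and alpha differences was smallest for alphaV-beta1, at 0.03, and widest for alphaV-beta8, at -2.21. For alphaV-beta5 the gap was -0.47. For the beta1 receptors with alpha2, alpha3 and alpha6, the beta chain exceeded the alpha chain by 0.77 to 1.08. The gaps of alpha5-beta1 (1.18) and alphaV-beta6 (-1.04) are uncertain, since ITGA5 and ITGB6 lay under the filter. Alpha6-beta4 had a gap of -0.50. These pairs share subunits, so the 9 gaps are not separate measurements, and RNA values give no amount of assembled receptor.

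**Figure D3:**
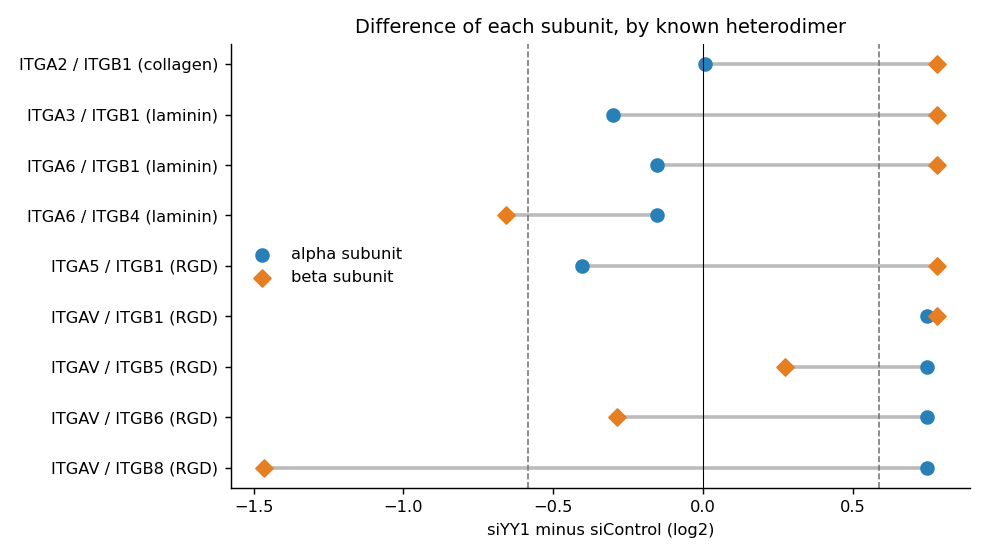
Difference siYY1 minus siControl (log2, horizontal axis) of the alpha subunit (circle) and the beta subunit (diamond) of 9 known heterodimers, with the ligand class in brackets and dashed lines at 1.5-fold. The subunits of alphaV-beta1 nearly coincide, those of alphaV-beta8 lie 2.21 apart on opposite sides of 0, and the same gene appears in several rows.

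The other integrin genes were mostly dim. Of 15 other subunits with a probe set, 1 passed the filter. That was ITGAE, the alpha chain that binds E-cadherin on lymphocytes, with 9.22 in siYY1 and 9.03 in siControl (difference 0.19). Its partner ITGB7 did not pass, at 4.20 in siYY1 and 4.32 in siControl. Leukocyte and platelet integrin genes were likewise under the filter, among them ITGB2 (3.53 in siYY1 and 3.52 in siControl) and ITGB3 (3.78 in siYY1 and 3.86 in siControl). ITGB3 is the other well-known partner of alphaV and lay far under the filter on both arrays.

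Lists of genes that act with integrins were then described in the same way, by genes kept and counts past 1.5-fold. In each list the count is to be read against all genes kept, of which 3.78% were at least 1.5-fold lower and 3.04% higher. Of 25 intracellular linkers and signalling adaptors kept, 0 lay past 1.5-fold, close to these shares for so short a list, and the median was 0.05. The highest were the kinases SRC, with 10.59 in siYY1 and 10.02 in siControl, and PTK2, with 10.68 in siYY1 and 10.21 in siControl. The difference of SRC was 0.577, just under the 1.5-fold threshold of 0.585. That of PTK2, which encodes focal adhesion kinase, was 0.47. The lowest were TGFB1I1, a paxillin relative (-0.36), and FERMT1, the epithelial kindlin (-0.35). Of the 12 adaptors measured but under the filter, 3 lay past 1.5-fold, and the sizes of their differences are uncertain. Among all named genes, 3.90% were at least 1.5-fold lower and 3.98% higher. The share among genes under the filter alone was not computed, so nothing is read from this count. NEDD9, a scaffold protein, differed by 0.85, the kindlin gene FERMT2 by 0.74 and the talin gene TLN2 by -0.61, all named after their values were seen. Talin 1 and the filamins A and B were not analysed here.

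Trafficking genes that carry integrins to and from the surface had 0 of 24 kept past 1.5-fold, likewise close to the shares of 3.78% lower and 3.04% higher among all genes kept, and a median of -0.01. RAB11FIP3 (0.45) and GGA3 (0.31), which act in recycling, were the highest, and the endocytic adaptor NUMB (-0.44) and the filopodial motor MYO10 (-0.28) the lowest.

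Matrix ligand genes were mostly under the filter. Of 12 laminin and basement membrane genes with a probe set, 5 were kept, and 0 of these 5 lay past 1.5-fold. LAMC1, the gamma1 chain, was higher (12.33 in siYY1 and 11.94 in siControl, difference 0.39), and LAMB1, the beta1 chain, was lower (12.51 in siYY1 and 12.97 in siControl, difference -0.46). HSPG2, or perlecan, differed by -0.22 and AGRN, or agrin, by 0.02. Of 15 collagen genes, the 2 kept were COL1A2 (0.45) and COL6A1 (0.44), both within 1.5-fold.

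Of 19 genes for RGD proteins and other integrin ligands, 5 were kept, of which 2 were higher and 1 lower by 1.5-fold or more. Such differences were seen in 3.04% and 3.78% of all genes kept. The median of these 5 was 0.09. MFGE8, a secreted protein that binds alphaV-beta5 through an RGD sequence, read 12.79 in siYY1 and 12.02 in siControl, a difference of 0.77. CCN1, a matricellular ligand of several integrins, read 9.83 in siYY1 and 8.13 in siControl, a difference of 1.70. In the other direction, NPNT, or nephronectin, a basement membrane ligand of alpha8-beta1, read 11.68 in siYY1 and 12.61 in siControl, a difference of -0.92. ITGA8, the alpha chain of that receptor, was under the filter, with 4.69 in siYY1 and 4.61 in siControl. ADAM9, a membrane metalloprotease that binds integrins, differed by -0.05. FN1, the gene of fibronectin, was also under the filter, with 3.85 in siYY1 and 3.75 in siControl.

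Because ITGB8 and ITGB6 pair with alphaV to activate latent TGF-beta, genes of the latent complex and its response were set beside them. Of 14 kept, 2 were past 1.5-fold on the higher side and 0 on the lower side, where all genes kept had 3.04% and 3.78%. The median was 0.12. TGFB1, the ligand, read 12.55 in siYY1 and 12.19 in siControl (0.36), and TGFBR1 differed by 0.50 while TGFBR2 differed by -0.28. LTBP4, which tethers latent TGF-beta to the matrix, read 7.36 in siYY1 and 7.95 in siControl, and its siYY1 value lay under the filter. Its difference of -0.583 fell just short of the 1.5-fold threshold of 0.585. The 2 genes past 1.5-fold were MMP14, a membrane protease (9.50 in siYY1 and 8.41 in siControl, difference 1.09), and the feedback inhibitor PMEPA1 (12.57 in siYY1 and 11.61 in siControl, difference 0.96). ITGB8 and PMEPA1, a TGF-beta target, lay on opposite sides of 0.

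Membrane partners and hemidesmosome proteins had 5 of 18 kept genes past 1.5-fold, all of them lower, and a median of 0.04. Among all genes kept, 3.78% were lower by this much and 3.04% higher. The 5 were the tetraspanin genes TSPAN8 (-1.75) and TSPAN1 (-1.55), the urokinase receptor gene PLAUR (-1.14), the hepatocyte growth factor receptor gene MET (-0.69) and the caveolin gene CAV1 (-0.69). The epidermal growth factor receptor gene EGFR (0.34) was the highest. CD36 (0.31) came next, at 17.29 in siYY1 and 16.98 in siControl, also beyond 16 on both arrays, so the size of this difference is uncertain. TSPAN8, TSPAN1 and PLAUR had been seen to be low in earlier results of these arrays.

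The hemidesmosome partners of ITGB4 that were measured did not share its difference evenly. DST, whose epithelial product BP230 anchors keratin at hemidesmosomes, was also lower, at 10.93 in siYY1 and 11.41 in siControl (-0.49). This value is for the gene as a whole and does not separate BP230 from other DST products. PLEC, or plectin, read 11.22 in siYY1 and 11.18 in siControl (0.04). CD151, the tetraspanin bound by the laminin-binding integrins, read 13.76 in siYY1 and 13.56 in siControl (0.20). COL17A1 and ERBB2, also listed among membrane partners and hemidesmosome proteins, were not analysed here. DST, PLEC, CD151, TGFB1, TGFBR1, FN1 and ITGA8, with the dim subunits above, were named for their known link to an integrin gene after their values were seen.

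**Figure D4:**
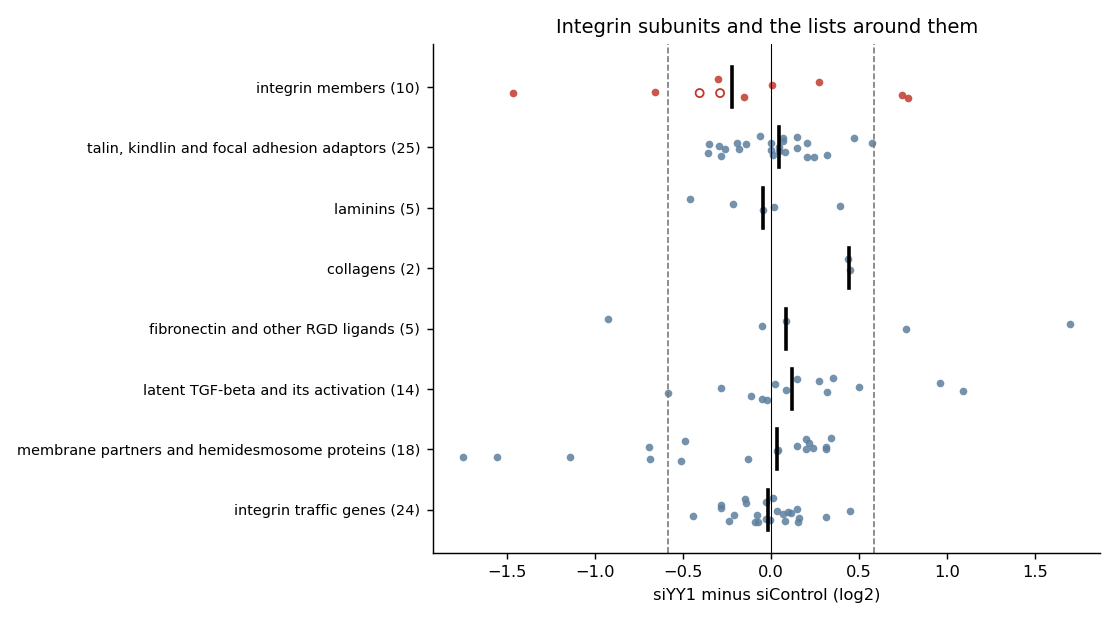
Difference siYY1 minus siControl (log2, horizontal axis) of each gene, by list, with the number of genes in brackets, a black bar at the median and dashed lines at 1.5-fold. All 10 integrin genes are shown, open circles marking the 2 under the filter; the other rows hold genes kept. Integrin genes lie past both dashed lines, and the kept adaptors and trafficking genes past neither.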

How the data were processed

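RNA of SW48 cells was hybridised to whole-transcript GeneChips, 1 for siYY1 and 1 for siControl, grouped by sample title. The authors deposited 1 value per probe set, used here as log2 values. That unit was read from the values, which ran from 2.32 to 17.97 in siYY1 and from 2.46 to 17.90 in siControl. The log base, the software and how background and scale were treated were not stated in the labels or the file. Once sorted, the values of both arrays lay within 0.15 of each other, a nearly equal distribution. Folds take the values as plain log2. Some values lay beyond 16, the limit of a 16-bit scan, so how far the scale departs from plain log2 intensity is unknown. Every fold given here depends on that reading, not only those of the brightest genes.

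Probe sets were named through GEO's platform annotation, and symbols were checked by Entrez identifier against RefSeq (GRCh38.p14), which changed 0. Of 21448 probe sets, 17709 had 1 symbol, 0 several and 3739 none. The 20 genes with several were averaged. Differences are siYY1 minus siControl. Genes were kept at a mean log2 of at least 7.54. Without replicates, a difference of at least 1.5-fold took the place of a test, and precision is limited by the number of arrays.

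The integrin genes and lists were chosen with earlier results of these data known. The text names the 10 genes, other integrin genes kept, and for each list the genes kept past 1.5-fold and up to 2 at each end. Alternatives were a looser and a stricter (2-fold) threshold, filters, centrings (lowess fraction 0.3) and quantile normalization. Promoter windows came from RefSeq (GRCh38.p14) and motifs were searched on both strands. The fold rule was run on simulated data with shifts well past the threshold and little noise. That run checks the code only and gives no error rate for these arrays. Python 3.11.15, numpy 2.4.6, pandas 2.3.3, statsmodels 0.14.6 and matplotlib 3.10.9 were used.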

Additional observations from a re-analysis of the deposited data

How the results depend on the processing

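The counts of 2 integrin genes at least 1.5-fold lower and 2 at least 1.5-fold higher were the same without a filter, with a filter on the brighter array, and under quantile normalization, median centring, lowess centring and the brightest probe. At the looser of the other thresholds they were the same over the 8 genes kept, while over all 10, counted after seeing the data, 3 were lower, with ITGA5 (1.32-fold) added, and 2 higher. At 2-fold, 1 was lower and 0 higher. A filter at the 75th percentile (mean log2 of 10.83) left 3 of the 10, of which 1 was lower and 1 higher, because fewer genes were counted. Over all named genes, an alternative chosen after seeing the data, 2 of the 10 were lower. The median of -0.22 became -0.075 both over the 8 genes kept, chosen after seeing the data, and with the filter on the brighter array, since ITGA5 and ITGB6 then dropped out. Each gene's own difference kept its sign in all 40 single-gene values under other centrings, normalization and probe choice, and moved by at most 0.04. With 1 probe set per gene, the probe choice could change none of these values, and median centring shifted every gene by the same 0.0028. The sorted values of both arrays already lay within 0.15 of each other, so quantile normalization had little to change. These alternatives therefore say nothing of variation between replicate arrays. Counting 150 bases (100 before the start) in place of 300 changed the share of all windows with GCCAT to 22.8% and with AANATGGC to 4.20%, since shorter windows hold fewer letters. Of the 13 integrin windows, 3 then held GCCAT and 0 held AANATGGC. The ITGB1 match, 111 bases before the start, and the longer motif of ITGB5 lay outside the shorter windows. No paired analysis was possible because each group has 1 array. For the same reason no array could be left out.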
